A study of Mus musculus with 58 samples.

Results

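SAFB2-only sites are stretches of mouse chromatin where a ChIP-seq peak was called for tagged SAFB2 and for none of the other proteins profiled in the series. To find them, the peaks of 9 lists were merged into regions wherever they shared at least 1 bp, and regions with a peak in the SAFB2 list and in none of the other 8 lists were kept. This left 1220 regions out of 67384 merged regions, and out of 6595 regions with any SAFB2 peak (18.5%, Wilson 95% interval 17.6 to 19.5%). Each of them consists of a single SAFB2 peak, so its width and score are those of that peak. The sites were chosen by the peak calls themselves, that is, by the presence or absence of a peak in each list, so the widths, scores and positions below are descriptions of 1 SAFB2 library without a replicate, and no test was made. Intervals are 95% intervals (Wilson for shares, binomial order statistics for medians) and cover counting error only, since regions are not replicates. A site of this kind lacks a called peak in the other lists, and signal below the authors' thresholds is not seen in a peak list.

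SAFB2 (scaffold attachment factor B2) and its close paralogue SAFB are nuclear proteins with a SAP domain, which binds DNA, and an RNA recognition motif. They are known for binding AT-rich scaffold or matrix attachment DNA and for roles in transcriptional repression and RNA processing. hnRNPU, also called scaffold attachment factor A, has a SAP domain too and binds nuclear RNA and chromatin.

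The cells were untreated mouse embryonic stem cells of the 129/Ola strain. Those labelled FB(OE)-SAFB2 overexpressed tagged SAFB2 and were built from J1 cells with the biotin ligase BirA, as were the FB(OE) cells for SAFB, hnRNPU, CIRH1A, UTP3, UTP6 and PSPC1 (1 library each). The 2 AID-FB(KI)-PSPC1 libraries carried the tag at the PSPC1 gene itself in CJ9 cells. SAFB2, SAFB and hnRNPU chromatin was crosslinked with 2 mM DSP for 30 minutes and 1% formaldehyde for 10 minutes, treated with DNase I, and purified with FLAG antibody and then streptavidin. The CIRH1A, UTP3, UTP6 and knock-in cells were fixed with 3% formaldehyde and the PSPC1 overexpression cells with 1%, and these had no streptavidin step. SAFB and hnRNPU are therefore the lists made by the same protocol as SAFB2, and every protein was overexpressed except PSPC1 in the knock-in. The SAFB2 list held 6670 peaks, SAFB 10632 and hnRNPU 10279. The others ranged from 9689 (CIRH1A) to 40217 (UTP6). Read depth is unknown, since a peak list does not give it.

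SAFB was the list that removed most SAFB2 regions. Without the SAFB list, 3474 regions would have counted as SAFB2-only, a gain of 2254. Leaving out UTP6, the longest list, gave 1522, and leaving out any other single list gave between 1223 and 1261. Among the SAFB2 regions that were not alone, 1962 were shared with SAFB and no further list, and 3413 had a peak of a protein other than SAFB.

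The sites came mostly from the weak end of the SAFB2 list. The score is the authors' own value per peak, its unit is not stated, and it is used here only to rank peaks within a list. SAFB2-only regions had a median score of 59.2 (58.3 to 60.1), against 69.0 (68.2 to 69.8) for the other 5450 SAFB2 peaks. The lowest site scored 50.02, at the lower end of the list, whose minimum was 50.01, and 642 sites scored under 60. The highest reached 168.62 and ranked 208 among the 6670 SAFB2 peaks, so none of the 207 strongest SAFB2 peaks stood alone. In the quartile of SAFB2 peaks with the lowest scores, 29.0% (26.8 to 31.2%) were SAFB2-only. The next quartiles gave 21.1% and 15.2%, and the quartile with the highest scores gave 7.91% (6.71 to 9.31%).

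The same fall was seen in the hnRNPU list, and to a smaller degree in the SAFB list. Peaks of hnRNPU alone made up 39.6% of its lowest quartile and 4.59% of its highest. SAFB-only peaks made up 40.0% of the lowest SAFB quartile and still 24.2% (22.6 to 25.9%) of the highest. The lists differ in length and each is set against a different group of other lists, so these shares are given side by side only.

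**Figure D1:**
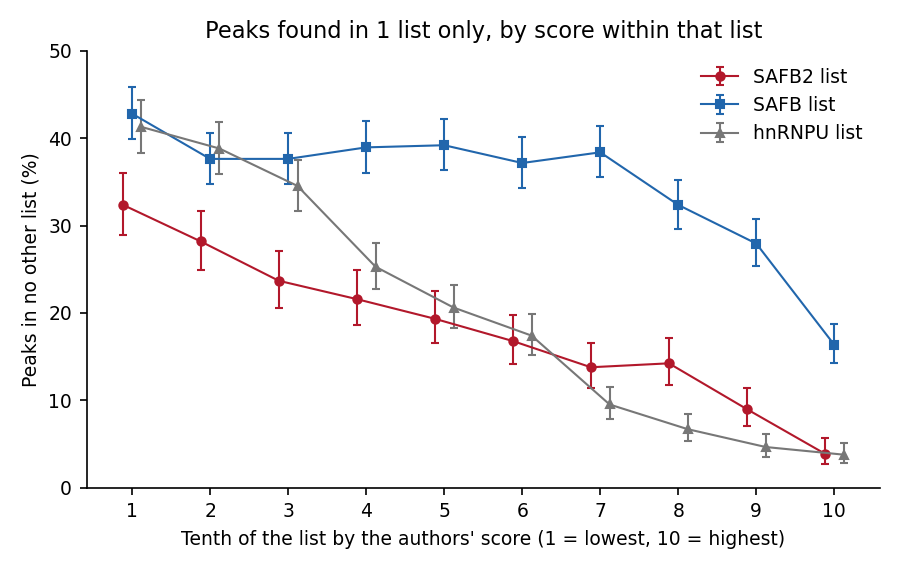
Percentage of peaks found in no other list (vertical axis, %) for 10 equal groups of peaks of the SAFB2, SAFB and hnRNPU lists by the authors' score (horizontal axis, 1 = lowest), with Wilson 95% intervals. The SAFB2 share went from 32.4% in the lowest group to 3.90% in the highest, while the SAFB share in its highest group was 16.4%.

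SAFB2-only regions were narrow. Their width ranged from 404 to 7944 bp with a median of 1046.5 bp (1008 to 1088), and 46.1% were at most 1000 bp wide. The other SAFB2 peaks had a median width of 1325 bp (1302 to 1344), and 25.2% of them were at most 1000 bp wide. This order held within the 3 lower score quartiles: in the lowest, the median was 925 bp (879 to 955) for SAFB2-only peaks and 1137.5 bp (1091 to 1174) for the rest. In the highest quartile it did not, since the 132 SAFB2-only peaks had a median of 1722.5 bp (1436 to 2120) and the others 1587.5 bp (1519 to 1644), with intervals that overlap. SAFB-only regions were wider at 1373 bp (1336 to 1408) and hnRNPU-only regions narrower at 557 bp (550 to 568). The whole lists had the same order of median peak width, at 1699 bp for SAFB, 1275 bp for SAFB2 and 796 bp for hnRNPU.

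Width and score rose together within the sites. Spearman's rho was 0.32 over the 1220 regions and 0.23 over the other 5450 SAFB2 peaks, with all points from 1 library and 1 peak calling. The strongest sites were of both kinds, narrow and broad. Of the 8 regions with the highest scores, 2 were at most 1393 bp wide and the other 6 were between 3147 and 5372 bp. In all, 51 sites (4.18%, 3.19 to 5.45%) were at least 4 kb wide, with a median score of 72.3 (64.2 to 81.0), and the remaining 1169 had a median score of 58.9 (58.1 to 59.7). Of the other SAFB2 peaks, 3.52% (3.07 to 4.05%) were at least 4 kb wide, a similar share.

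**Figure D2:**
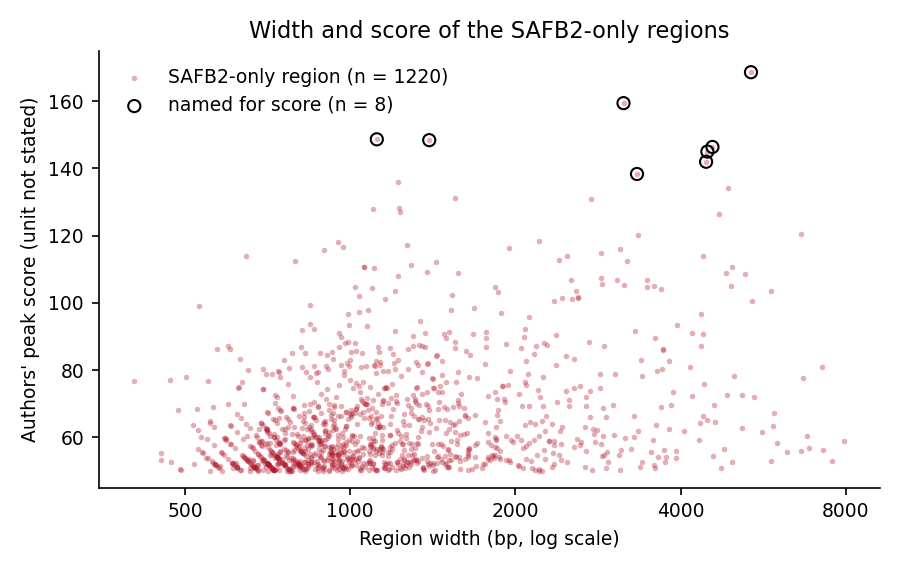
Width in bp (horizontal log axis) against the authors' score (vertical axis, unit not stated) of each SAFB2-only region, with the 8 highest scoring ones circled. Of the 1220 regions, 642 scored under 60. The median width was 1046.5 bp, and 6 of the circled regions are over 3 kb wide.

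The 8 sites with the highest scores differed in how close the other proteins were, and 5 of them had no peak of another list within 10 kb. Positions are in the mm9 assembly, counted from 1. The highest score belonged to chr1:124814697-124820068, a 5372 bp region at 168.62, whose nearest peak of any other list was a SAFB peak 31396 bp away. The second, chr7:67356194-67359340, scored 159.42 and had its nearest peak, one of UTP6, at 29308 bp and its nearest SAFB peak at 53955 bp.

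The third, chr14:112236317-112237434, was of the other kind. It is 1118 bp wide, scored 148.66, and lay 525 bp from a SAFB peak, while the nearest peak of every remaining list was at least 64946 bp away. At chr3:132730479-132731871 (148.41), UTP6 was 3650 bp away and SAFB 21149 bp. The region chr5:59319093-59323662 (146.38) had UTP6, hnRNPU, CIRH1A and UTP3 peaks within 1340 to 1835 bp and SAFB at 5094 bp.

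The remaining 3 of the 8 were chr14:49830617-49835090 (145.01), 67441 bp from SAFB, and chr5:104948344-104952793 (141.98), 46734 bp from it. The region chr4:9313221-9316550 (138.35) was the most isolated of the 8, with its nearest peak of another list, one of UTP6, 104167 bp away. For each of the 8, the nearest other SAFB2-only region was at least 182807 bp away.

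Outside chromosome 18 and unplaced sequence, which were passed over here, the 5 widest sites had lower scores. They were chr17:22055091-22063034 with 7944 bp and a score of 58.84, chr7:28638713-28646255 with 7543 bp and 52.94, chr7:116665168-116672409 with 7242 bp and 80.94, chr11:3535640-3542439 with 6800 bp and 60.4, and chr5:9169983-9176661 with 6679 bp and 77.78. Each of these 5 had a peak of some other list within 739 to 9276 bp, and the first had SAFB as its nearest at 6340 bp. Chromosome 18 held further sites in the same range of width. Not all of those had a peak of another list that near.

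Although none overlaps a SAFB peak by definition, SAFB2-only regions lay close to SAFB peaks more often than to hnRNPU peaks. The median edge-to-edge distance was 58072 bp (51028 to 65620) to SAFB and 80753 bp (69566 to 90113) to hnRNPU, over the 1219 regions on a chromosome with peaks of these lists. Within 1 kb of a SAFB peak there were 140 regions (11.5%, 9.81 to 13.4%), against 23 (1.89%, 1.26 to 2.82%) for hnRNPU. Within 10 kb the shares were 25.3% (23.0 to 27.9%) and 17.4% (15.4 to 19.6%), and within 100 kb 63.2% and 55.5%. The ratio of the counts was widest at the shortest range: 35 sites lay within 200 bp of a SAFB peak and 2 within 200 bp of an hnRNPU peak. Between 2 and 5 kb the order turned, with 55 sites for SAFB and 91 for hnRNPU. Some longer lists were nearer than SAFB by the median: UTP6 at 11802 bp, overexpressed PSPC1 at 44548 bp and UTP3 at 46105 bp. Their shares within 10 kb were 47.3, 25.6 and 27.6%, and within 1 kb 8.53, 2.79 and 3.77%. The knock-in lists, also longer, were farther, at 103848 and 79222 bp.

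The SAFB list is similar to the hnRNPU list in length but its peaks are wider, covering 22.0 Mb against 10.0 Mb, and an edge-to-edge distance is shorter to a wider peak. Taken between midpoints, 13.6% of the regions (11.8 to 15.7%) were within 3 kb of a SAFB peak and 3.94% (2.98 to 5.18%) within 3 kb of an hnRNPU peak. With each other list cut to its 6670 highest scoring peaks, 8.78% were within 1 kb of SAFB, and the other 7 lists gave 0.328% (overexpressed PSPC1) to 2.54% (UTP6). SAFB then held the nearest peak for 35.8% of the regions and UTP6 for 21.4%. The median distances at this length did not set SAFB apart. They were 110353 bp (99869 to 117994) to SAFB, 113841 bp to UTP3, 116042 bp to UTP6 and 127653 bp (114851 to 144872) to hnRNPU, with overlapping intervals. The remaining lists had longer medians. With the lists as deposited, UTP6, with 40217 peaks, was nearest for 38.3% and SAFB for 27.7%.

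**Figure D3:**
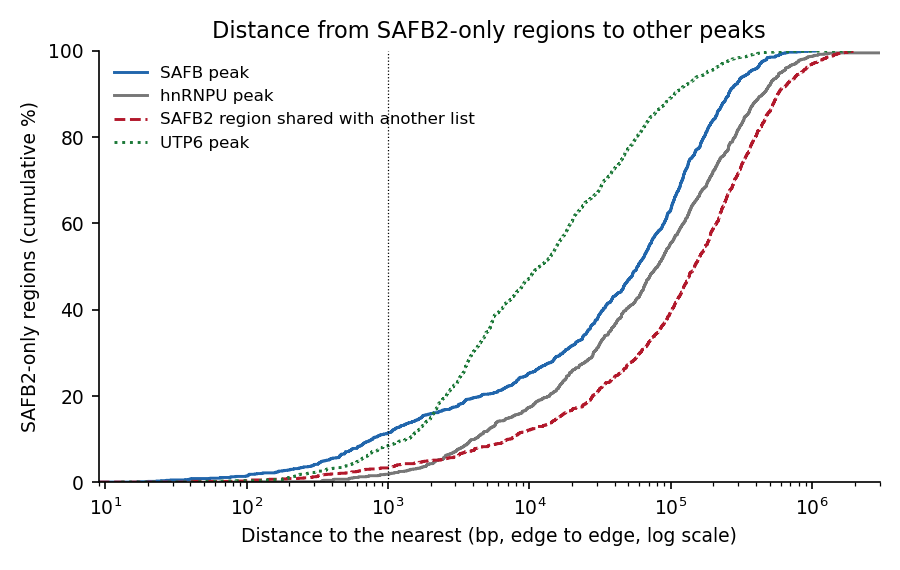
Cumulative percentage of SAFB2-only regions (vertical axis) by the distance in bp to the nearest SAFB, hnRNPU or UTP6 peak or to the nearest SAFB2 region shared with another list (horizontal log axis); the dotted vertical line marks 1 kb. At 1 kb the SAFB curve is at 11.5% and the hnRNPU curve at 1.89%.

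Seen from the SAFB-only regions, SAFB2 was the closer list at 1 kb, while at 10 kb the intervals of SAFB2 and hnRNPU overlapped. Of the SAFB-only regions, 6.16% (5.43 to 6.98%) had a SAFB2 peak within 1 kb, from a shorter target list, and 3.94% (3.36 to 4.62%) had an hnRNPU peak within 1 kb. Within 10 kb the shares were 14.5% (13.4 to 15.7%) for SAFB2 and 16.5% (15.3 to 17.7%) for hnRNPU. The median distances were 108006 bp (101871 to 114947) to SAFB2 and 100144 bp (92692 to 107821) to hnRNPU. In both cases the intervals overlap, and the target lists differ in length, at 6670 peaks for SAFB2 and 10279 for hnRNPU. Of the hnRNPU-only regions, 2.26% (1.70 to 2.99%) were within 1 kb of SAFB and 1.06% (0.699 to 1.59%) within 1 kb of SAFB2. Of the SAFB2-only regions, 3.36% (2.49 to 4.53%) lay within 1 kb of a SAFB2 region shared with another list, of which there are 5375. The share within 1 kb of a SAFB peak was 11.5%. The SAFB list is longer, at 10632 peaks, and separate SAFB2 peaks come from 1 peak calling. These 2 shares are therefore given side by side only.

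The 140 sites beside a SAFB peak had 140 different SAFB neighbours. Of these neighbours, 102 (72.9%, 65.0 to 79.5%) held no SAFB2 peak themselves, and 82 were SAFB-only regions. Over the whole SAFB list, 65.5% of regions held no SAFB2 peak, so the share among these neighbours did not stand apart from that of the list. The neighbouring SAFB peaks had a median score of 88.2 (78.9 to 98.1) in the SAFB list, whose overall median was 74.9. The SAFB2-only regions beside them had a median SAFB2 score of 64.7 (59.8 to 66.5), against 58.6 (57.2 to 60.4) at 1 to 10 kb and 59.2 (57.7 to 60.4) beyond 100 kb.

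The rule turns on an overlap of 1 bp. Leaving out unplaced sequence, where 1 site lay 9 bp from SAFB, the sites nearest to SAFB were chr12:68655961-68656798 at 17 bp, chr9:30677512-30678485 at 20 bp and chr15:67140809-67141789 at 23 bp, with SAFB2 scores of 51.64, 56.09 and 67.56. With the same sequence left out, the smallest gaps to any list were 13 bp, from chr8:114310996-114312835 to a UTP6 peak, and 14 bp, from chr5:141306428-141306992 to a peak of overexpressed PSPC1, followed by the chr12 region. Just outside the rule, chr4:89458285-89460346 shared 3 bp with UTP6, while chrX:111771756-111774811 shared 7 bp and chr15:60911227-60913382 shared 13 bp with SAFB. When peaks up to 1 kb apart were merged, 960 regions were left and 16.2% of them were within 10 kb of a SAFB peak. When only a reciprocal overlap of 50% counted as sharing, 2476 SAFB2 peaks were alone.

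At the other extreme, the sites farthest from SAFB were chr6:93333198-93335275 at 1055469 bp, chr11:114448881-114450188 at 919385 bp and chr12:98280553-98281827 at 829489 bp. Each had a UTP6 peak within 731 to 5219 bp, so these 3 places were far from SAFB but not from every other protein.

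Chromosome X carried 70 of the 1220 SAFB2-only regions (5.74%, 4.57 to 7.19%). This was close to the 6.49% (5.86 to 7.18%) of all other SAFB2 regions, which combine unlike groups. The share was lower than 10.5% (9.22 to 11.9%) of the regions shared by SAFB2 and SAFB alone and 8.72% (7.85 to 9.67%) of the SAFB-only regions. It was higher than the 4.19% (3.57 to 4.92%) of SAFB2 regions shared with a list other than SAFB, with intervals that overlap. Of the whole SAFB list, 726 of 10632 peaks were on X. The value was above the 2.83% (2.20 to 3.64%) of hnRNPU-only regions and the 2.78% of all merged regions. The share went down with distance from SAFB. It was 10.7% (6.60 to 16.9%) among sites within 1 kb of a SAFB peak, 8.28% at 1 to 10 kb, 5.21% at 10 to 100 kb and 3.79% (2.38 to 5.98%) beyond 100 kb.

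By distance from hnRNPU the X share had no such order, at 4.35, 7.41, 3.02 and 7.55% in the same classes. By distance from UTP6 it was highest beyond 100 kb, at 13.5% (8.74 to 20.4%), and UTP6 had 5.43 peaks per Mb on X against 15.8 on the autosomes. On X, 21.4% (13.4 to 32.4%) of the 70 sites were within 1 kb of a SAFB peak, and on the autosomes 10.6% (8.94 to 12.5%) of 1132. SAFB peaks were also somewhat denser on X, at 4.36 per Mb against 3.93 on the autosomes, whereas hnRNPU peaks were sparser, at 1.76 against 4.01. The part of these densities in the gradient was not tested. On chromosomes 1 to 19 alone, 10.6% of the 1132 sites were within 1 kb of SAFB and 1.94% within 1 kb of hnRNPU, close to the values over all chromosomes.

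**Figure D4:**
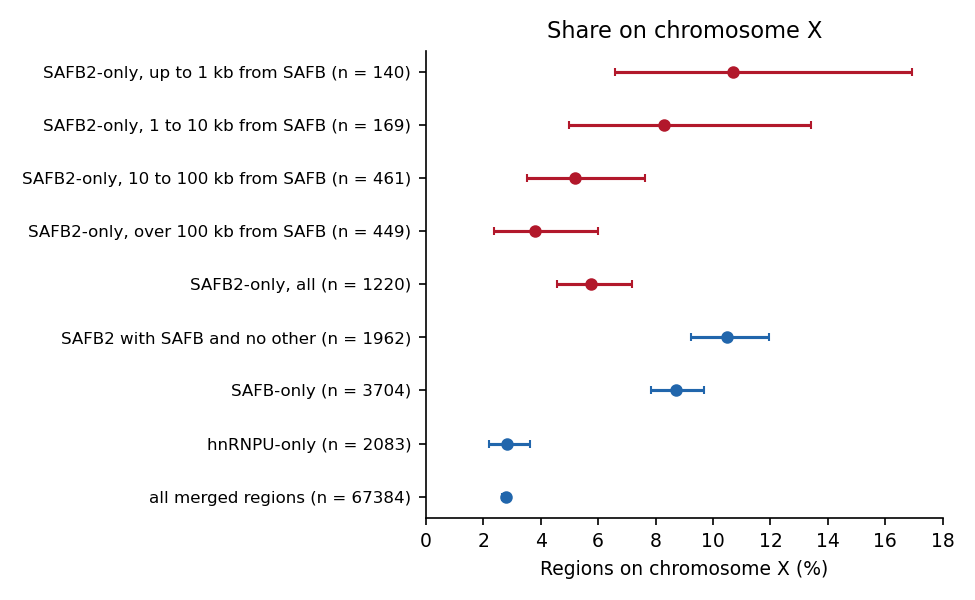
Percentage of regions on chromosome X (horizontal axis) for SAFB2-only regions, in all and by distance to the nearest SAFB peak (red), and for other sets of regions (blue), with Wilson 95% intervals. The SAFB2-only value falls from 10.7% within 1 kb of SAFB to 3.79% beyond 100 kb.

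By chromosome the sites followed the SAFB2 list, X included, where 16.7% (13.4 to 20.6%) of the SAFB2 regions were SAFB2-only. On chromosomes 1 to 19 and X, between 15.7% (chromosome 6) and 23.7% (chromosome 5) of the SAFB2 regions were SAFB2-only. The interval of 1 of these 20 chromosomes, chromosome 5 (19.6 to 28.4%), lay above the 18.5% over all SAFB2 regions, and none lay below it. Chromosome 1 held the largest number, 103.

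Sites near UTP6 or hnRNPU peaks were broader than sites far from them. By distance to the nearest UTP6 peak, the median width was 1246.5 bp (1087 to 1417) within 1 kb, 1216 bp (1159 to 1298) at 1 to 10 kb, 949 bp (899 to 988) at 10 to 100 kb and 843 bp (794 to 899) beyond 100 kb. For hnRNPU it was 1323 bp (1007 to 1758) over the 23 sites within 1 kb. It then went from 1319 bp (1143 to 1470) at 1 to 10 kb to 940 bp (908 to 980) beyond 100 kb. Distance to SAFB gave no such order, with medians of 993.5, 1094, 1061 and 1024 bp from the nearest to the farthest class. The 51 sites of at least 4 kb had a median distance of 7906 bp (5386 to 12473) to UTP6, 22429 bp (14668 to 40994) to hnRNPU and 58973 bp (30645 to 116603) to SAFB. For the 563 sites of at most 1 kb these distances were 25211, 117162 and 62499 bp. None of the 51 was on X, which allows a share of up to 5.88% by 3 counts of 51. Of the narrower sites 5.99% (4.77 to 7.50%) were on X, which lies between these limits, so a difference was not established.

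The same order of widths by distance from UTP6 was seen in other sets. SAFB-only regions went from 2172 bp (2072 to 2358) within 1 kb of UTP6 to 1024.5 bp (988 to 1053) beyond 100 kb, and hnRNPU-only regions from 631.5 bp (599 to 700) to 512.5 bp (496 to 550).

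**Figure D5:**
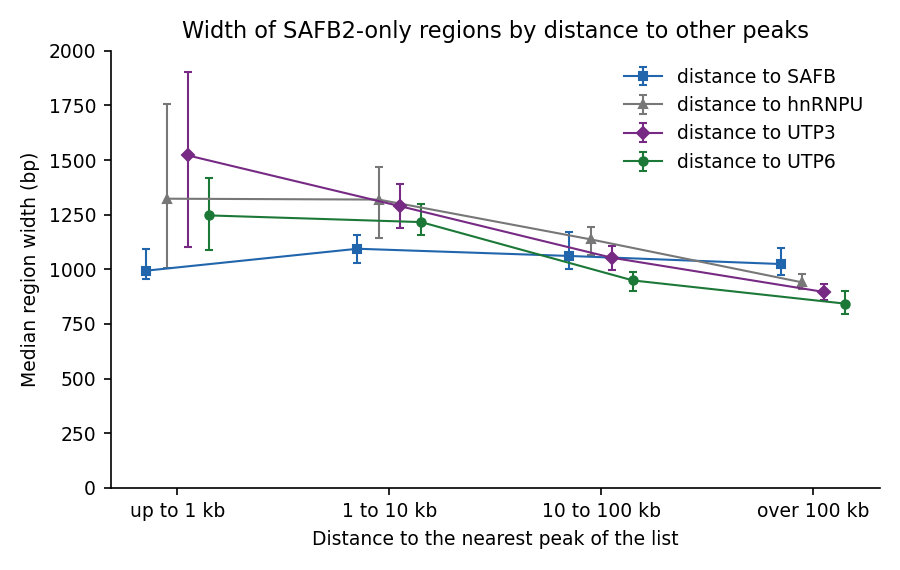
Median width of SAFB2-only regions in bp (vertical axis) by class of distance to the nearest SAFB, hnRNPU, UTP3 or UTP6 peak (horizontal axis), with 95% order-statistic intervals. Width falls with distance from UTP6, from 1246.5 to 843 bp, and stays between 993.5 and 1094 bp for SAFB.

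SAFB2-only regions rarely came in groups. The median gap from one to the nearest other was 720369 bp (655256 to 761338). Only 74 of them (6.07%, 4.86 to 7.55%) had another within 50 kb, and these formed 37 pairs and no longer chain. The 3 pairs with the shortest span from end to end, which need not have the smallest gaps, were chr14:53633851-53636478, with a gap of 782 bp, chr5:8555041-8557826, with a gap of 929 bp, and chr3:147021612-147025268, with a gap of 2090 bp. Their scores were 50.85 and 50.92, 50.92 and 87.11, and 69.28 and 74.51, and their nearest SAFB peaks were 65034 to 422520 bp away. Among the 1220 highest scoring SAFB-only regions, 9.43% (7.91 to 11.2%) had another of the set within 50 kb. The same number of hnRNPU-only regions gave 10.5% (8.89 to 12.3%), and of regions shared by SAFB2 and SAFB alone 6.23% (5.01 to 7.73%). These sets were cut by score to equal size, whereas the SAFB2-only set was not.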

How the data were processed

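Peak lists of 9 of the 58 samples were used, and the other 49 samples were not analysed here. Each list comes from 1 library and gives the position, name and score of each peak. MACS appears in the names of the peaks, and its version, threshold and control are not given in the sources used here. The score column was used as the authors deposited it, with no stated unit. The build is mm9, and CASAVA, Bowtie2 and TopHat are named, per the submitters' processing notes. Neither a sequence nor a gene annotation of mm9 was used, so no gene is assigned.

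Peaks sharing at least 1 bp were merged with Python 3.11.15, numpy 2.4.6, pandas 2.3.3 and scipy 1.17.1 (figures, matplotlib 3.10.9), and the functions were tested on simulated data. Distances run between edges on the same chromosome; peaks or regions that touch are at 0. Chains link sites at most 50 kb apart. The regions named are the 8 with the highest scores, the 5 widest, the 3 nearest to and the 3 farthest from SAFB, 3 on either side of the overlap rule and the 3 largest chains with the shortest span, passing over chromosome 18 and unplaced sequence. The sites, measures and alternatives were chosen with earlier results of these data known. The contrasts with hnRNPU at midpoints and at equal list length, and the sets cut to equal size, were added after seeing the data.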

Additional observations from a re-analysis of the deposited data

How the results depend on the processing

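No paired analysis was possible because SAFB2 has 1 library. Of 67 alternative values, 44 stayed within the interval of the main value (for the number of sites, within 1.5 times it) and 23 did not. Without knock-in replicate 1 or 2 there were 1234 to 1253 sites. With peaks scoring under 50 removed from all lists there were 1263, and chromosomes 1 to 19 and X alone gave 1202. The minimum of 50 affected the knock-in lists only, whose lowest score was 30, since every other list started at 50 or just above.

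With a reciprocal overlap of 50%, 2476 SAFB2 peaks were alone, with a median width of 1154.5 bp, a median score of 62.2, 7.55% on X, 14.5% within 50 kb of another, a median of 12173 bp to SAFB and 49.0% within 10 kb of it. By construction these can overlap SAFB peaks. Merging peaks up to 1 kb apart removed the sites that near to a peak of any other list, those beside SAFB included. The 960 left had a median distance of 72884 bp to SAFB, with 16.2% within 10 kb of it. Before merging, 140 sites were within 1 kb of SAFB and 104 within 1 kb of UTP6. The 50% of SAFB2 peaks with the highest scores gave 385 sites, 1292 bp, a score of 79.6 and 2.60% within 50 kb of another, from fewer peaks. With 6670 peaks per list there were 2385 sites, since fewer peaks could exclude them, with 1145 bp, a score of 60.2, 14.0% within 50 kb of another, a median of 110371 bp to SAFB and 13.8% within 10 kb of it. Without the SAFB list there were 3474. Another site was within 10 kb for 2.46%, 100 kb for 11.8% and 500 kb for 41.1%. Apart from the constructions named, the cause was not tested. Read depth is unknown, which limits every count of peaks. No mm9 genome was used here, so the planned description of sequence and annotation was not run.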

Other observations

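A few stretches of 1 Mb held more SAFB2-only sites than the rest; they were picked out after their counts were seen. Of 2648 such stretches on chromosomes 1 to 19 and X, 1712 held no site, 722 held 1, and 10 held 4 or 5. The 3 with 5 sites differed in what else they held. The stretch chr14:53000001-54000000 had 6 SAFB2 peaks, of which 5 were SAFB2-only, and few others (2 of SAFB, 1 of hnRNPU and 9 of UTP6), and its sites were 115717 to 424273 bp from SAFB. The stretch chr14:43000001-44000000 had 8 SAFB2 peaks, 3 SAFB and 1 hnRNPU. By contrast, chr13:65000001-66000000 was dense in every overexpression list, with 32 SAFB2, 32 SAFB, 20 hnRNPU and 45 UTP6 peaks, and all its sites were within 45792 bp of SAFB.

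Outside chromosomes 1 to 19 and X there were 18 sites: 3 on Y, 11 on Y_random, 3 on other random or unplaced sequence and 1 on the mitochondrial genome. The last, chrM:13-1145, had a score of 56.41 and was the only mitochondrial region in any of the 9 lists. Of the 62 SAFB2 regions on Y_random, 17.7% (10.2 to 29.0%) were SAFB2-only, which does not stand apart from the 18.5% over all SAFB2 regions.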
